A study of Mus musculus with 10 samples.

Results

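The genes described here are a Notch receptor, its ligands, its nuclear targets and the Id inhibitors, which hold back the differentiation of oligodendrocyte precursors: Notch1, Jag1, Dll1, Dll3, Hes1, Hes5, Id1, Id2, Id3 and Id4. They were chosen by name, and every probe set whose gene symbol on the platform includes 1 of these names was taken, which gave 18 of 45037 probe sets and 10 of 10 genes. None of the 18 carried a second symbol. The arrays, 1 for each mouse, are numbered 14, 15, 16, 18 and 21 for the 5 wild-type animals and 11, 12, 22, 29 and 43 for the 5 Nkx2.2-/- animals, all C57BL/6 and aged 1.5 to 2 days. The Nkx2.2-/- mice lack the homeodomain transcription factor Nkx2.2 in all cells as far as the labels say, no other allele or agent is named, and the wild-type mice are littermates per the design text. RNA came from pons, medulla and rostral spinal cord in 20 µm sections, so each value is an average over neurons, glia, vessels and meninges.

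Notch signalling works by contact between neighbouring cells. A ligand on one cell, such as Jag1 or Dll1, binds the Notch1 receptor on the next, the receptor is cut, and its inner part enters the nucleus and joins the DNA-binding protein Rbpj to switch on Hes1 and Hes5, which encode repressors. Dll3 belongs to the ligand family by sequence but acts inside the cell as an inhibitor of the pathway. Id proteins have a helix-loop-helix domain and no basic region for DNA contact, so they capture E proteins and the Olig factors and keep them from their targets, and bone morphogenetic proteins (BMPs) are known inducers of Id genes. In the young central nervous system both systems maintain progenitors, favour astrocytes and delay myelination.

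The promoters of Hes5 and Dll3 are shown because they are the members' windows that hold more than 1 match to the Rbpj core, or any match to a motif of the Nkx2.2 class. RefSeq promoters of build GRCm38.p6 were found for 8 of the 10 genes, with 2 starts for Dll1, and the 250 bases before each start were searched on both strands. The core of the Rbpj site, TGGGAA, occurred in 21.6% of the 32851 promoters of that table. The motif TNAAGTG, known for homeodomain proteins of the NK-2 class to which Nkx2.2 belongs, occurred in 10.1%. Hes5 held the Rbpj core 2 times, beginning 226 and 82 bases before the start, the first of them read on the opposite strand. Id4 held it 1 time, and the windows of Notch1, Jag1, Dll1, Dll3, Id2 and Id3 did not hold these letters. Dll3 alone held the NK-2 motif, 208 bases before its start on the opposite strand. The windows are printed in the direction of the gene with the matches in capitals, at chr4:154960673-154960922 on the plus strand for Hes5 and chr7:28301786-28302035 on the minus strand for Dll3. The motifs do not overlap each other in either window.
Hes5: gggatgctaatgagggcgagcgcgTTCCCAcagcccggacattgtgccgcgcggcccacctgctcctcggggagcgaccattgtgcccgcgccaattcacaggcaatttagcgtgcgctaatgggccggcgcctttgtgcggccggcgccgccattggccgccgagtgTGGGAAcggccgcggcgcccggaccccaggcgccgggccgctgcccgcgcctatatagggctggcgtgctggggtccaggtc
Dll3: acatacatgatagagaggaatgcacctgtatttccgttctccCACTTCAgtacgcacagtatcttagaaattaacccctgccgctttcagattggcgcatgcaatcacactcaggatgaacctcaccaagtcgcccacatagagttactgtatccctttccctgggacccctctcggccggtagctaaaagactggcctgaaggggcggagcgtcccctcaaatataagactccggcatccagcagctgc

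The values are log2 RMA values, in which 1 unit is a doubling, and they lay between 3.52 and 13.2 with array medians of 5.07 to 5.12. The Nkx2-2 probe set lay between 6.42 and 6.88 in wild type and between 4.24 and 4.73 in Nkx2.2-/- mice, as the labels require, although the position of that probe set relative to the deleted part was not known here (log2 change -2.05, limma, Benjamini-Hochberg adjusted p = 7.2e-05). The Gapdh controls, in which a low 5 prime signal marks shortened RNA or cDNA, set 2 arrays apart. Their 3 prime control exceeded their 5 prime control by 2.13 (wild-type replicate 14) and 3.78 (Nkx2.2-/- replicate 43), while the remaining 8 arrays had differences between -0.32 and 0.13. The change of each member probe set is therefore given with and without those arrays. All 7 neuronal and all 9 astrocyte markers checked lay above the level of the median probe set. So did 8 of 9 markers listed for cerebellum, which is next to the labelled regions. Each gene was read by its probe set of highest mean, and other lists gave like counts. Among these were 40 of 43 other Notch pathway genes and 7 of 8 endothelial markers, so the counts do not show which tissues were present. In bulk tissue, fewer cells of a type and less RNA per cell cannot be told apart.

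No member passed the test between the genotypes. Of the 18 probe sets, 0 were called in either direction (limma with Benjamini-Hochberg adjustment over all probe sets at 0.05, adjusted p = 0.9997 for each), where 0.0511% of all probe sets were called, all of them lower in Nkx2.2-/- mice. At an unadjusted limma p under 0.05 there was 1 member probe set of 18, of Jag1, against 3.43% of all probe sets. The ranges of the genotypes overlapped for all 18, and 0.757% of all probe sets had ranges that did not. Log2 changes, Nkx2.2-/- minus wild type, were negative for 12 probe sets and positive for 6, with a median of -0.03 beside 0.001 over all probe sets, of which 49.2% were negative. Changes were under 0.1 in size for 11 of the 18.

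The intervals say how large a difference these arrays could have missed. The 95% interval of the change stayed within 1.5-fold either way for 16 of the 18 probe sets and within 2-fold for all 18. The exceptions to the narrower limit were Id1, whose interval reached 1.77-fold lower, and 1 probe set of Id4, whose interval reached 1.58-fold lower. The dim probe sets among them, such as Id2 1453596_at, whose mean lay above 32.7% of probe sets, and Jag1 1421105_at, above 26.2%, set little limit, because RMA compresses differences near background.

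**Figure D1:**
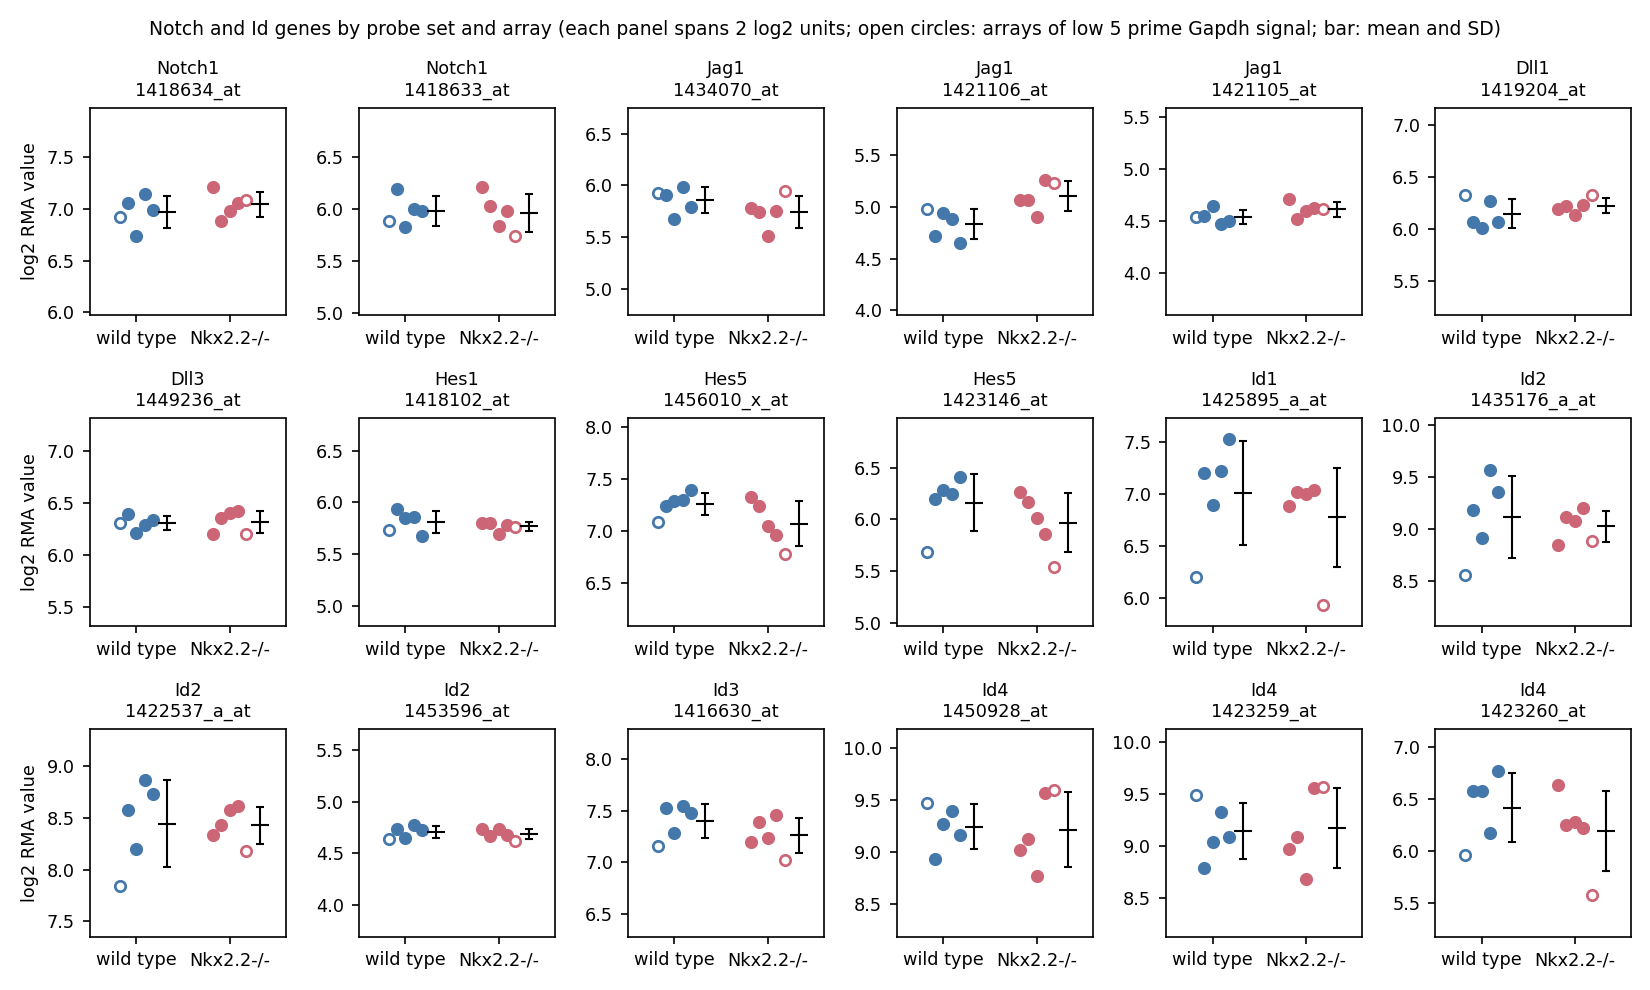
Log2 RMA value of each Notch and Id probe set on each array, with 5 wild-type mice in blue and 5 Nkx2.2-/- mice in red; bars are the group mean and SD, each panel spans 2 log2 units, and open circles mark the arrays of low 5 prime Gapdh signal. The ranges of the genotypes overlap in all 18 panels, and the open circles lie well below the rest for Id1.

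Notch1, the receptor, did not pass the test in either of its probe sets. Its probe set 1418634_at read 6.92, 7.05, 6.74, 7.15 and 6.98 in wild-type replicates 14, 15, 16, 18 and 21. It read 7.21, 6.88, 6.98, 7.05 and 7.08 in Nkx2.2-/- replicates 11, 12, 22, 29 and 43. The ranges lay almost on top of each other, with the highest value in Nkx2.2-/- replicate 11 and the lowest in wild-type replicate 16. The change was 0.08 with a 95% interval of -0.10 to 0.25 (SE 0.0806, n = 5 each, limma adjusted p = 0.9997). The other probe set, 1418633_at, had a change of -0.02 with an interval of -0.23 to 0.19. On the 8 arrays of normal 5 prime Gapdh signal the changes were 0.05 and 0.01. The first ran from 0.02 without wild-type replicate 16 to 0.12 without wild-type replicate 18. With the mean of dividing cell markers as a covariate it was 0.23 (limma unadjusted p = 0.0303, adjusted p = 1), while that of 1418633_at was 0.11.

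Jag1, the ligand that neurons present to oligodendrocyte precursors, was read by 3 probe sets that did not move alike. Probe set 1434070_at, of highest mean, read 5.93, 5.91, 5.68, 5.99 and 5.79 in wild-type replicates 14, 15, 16, 18 and 21 and 5.78, 5.74, 5.51, 5.75 and 5.94 in Nkx2.2-/- replicates 11, 12, 22, 29 and 43. Its groups overlapped widely, with a change of -0.11 and an interval of -0.30 to 0.07, and of -0.15 on the 8 arrays of normal 5 prime Gapdh signal. Probe set 1421106_at read 4.97, 4.72, 4.94, 4.88 and 4.65 in wild type and 5.06, 5.06, 4.90, 5.26 and 5.23 in Nkx2.2-/- mice, in the same order of replicates. Here the groups met only through Nkx2.2-/- replicate 22, which lay below wild-type replicates 14 and 16. The wild-type mean was 4.83 ± 0.142 and the Nkx2.2-/- mean 5.10 ± 0.144 (SD, n = 5 each), which gives a change of 0.27 with an interval of 0.09 to 0.45 (limma unadjusted p = 0.00785, adjusted p = 0.9997). The third probe set, 1421105_at, had a change of 0.07 with an interval of -0.03 to 0.18, and 0.07 on those 8. The positive value of 1421106_at held at 0.22 to 0.32 with any 1 array left out and at 0.27 on the 8 arrays of normal 5 prime Gapdh signal, and it passed over all probe sets in none of these fits. The mean of 1421106_at lay above only 45.2% of probe sets, so it was absent from the fit on probe sets above the median level. In that fit 0 of 15 member probe sets had an unadjusted limma p under 0.05.

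The difference between those Jag1 probe sets was then fitted for itself, a test added after their opposite signs were seen. In wild-type replicates 14, 15, 16, 18 and 21 probe set 1421106_at lay below 1434070_at by differences of -0.95, -1.19, -0.73, -1.11 and -1.14. In Nkx2.2-/- replicates 11, 12, 22, 29 and 43 the differences were -0.72, -0.68, -0.61, -0.49 and -0.71. The 5 Nkx2.2-/- values all lay above the 5 wild-type ones, by a narrow margin over wild-type replicate 16. The change in the difference was 0.38 (SE 0.0906, 95% interval 0.19 to 0.58, limma unadjusted p = 0.0013), and 0.42 on the 8 arrays of normal 5 prime Gapdh signal. Over the 30372 pairs of probe sets of 1 gene it did not pass (limma, Benjamini-Hochberg adjusted p = 0.841), and adjusted p ran from 0.109 to 1 over the other settings and with single arrays left out. Among those pairs 0.0823% were called, 2.89% had an unadjusted p under 0.05 and 0.682% had groups that did not overlap. Of the 11 pairs within the 5 members with several probe sets, 0 were called, 2 had an unadjusted p under 0.05, both of Jag1, and 1 had groups apart.

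**Figure D2:**
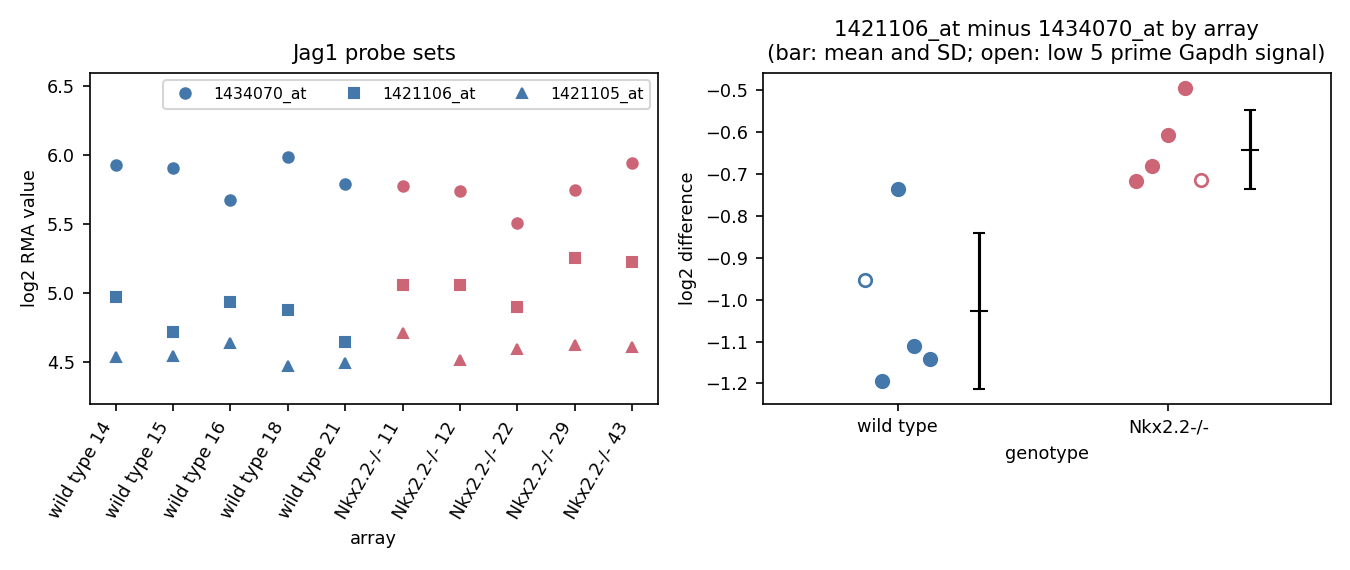
Left, log2 RMA values of the 3 Jag1 probe sets on each array, with wild type in blue and Nkx2.2-/- in red; right, the log2 difference of probe set 1421106_at minus 1434070_at on each array, with bars for the group mean and SD (n = 5 each). The 5 Nkx2.2-/- differences, from -0.72 to -0.49, lie above the 5 wild-type ones, whose highest is -0.73.

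Dll1, a ligand made by cells leaving the progenitor state, read 6.33, 6.07, 6.01, 6.27 and 6.07 in wild-type replicates 14, 15, 16, 18 and 21 and 6.19, 6.23, 6.14, 6.24 and 6.33 in Nkx2.2-/- replicates 11, 12, 22, 29 and 43. Every Nkx2.2-/- value lay above wild-type replicates 15, 16 and 21, and the highest was level with wild-type replicate 14. The change was 0.08 with an interval of -0.07 to 0.22, and 0.09 on the 8 arrays of normal 5 prime Gapdh signal. Dll3, the inhibitory family member, differed little between any of the mice. It read 6.30, 6.40, 6.21, 6.29 and 6.34 in wild type and 6.21, 6.35, 6.40, 6.42 and 6.21 in Nkx2.2-/- mice, in the same order. Its change was 0.01 with an interval of -0.11 to 0.13, which is at most 1.10-fold higher or 1.08-fold lower, and it was 0.04 on those 8. Neither passed over all probe sets (limma adjusted p = 0.9997 for both).

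Hes1 and Hes5, the repressors that Notch switches on, had negative changes in all 3 of their probe sets, and none of them passed. Hes1 read 5.73, 5.94, 5.85, 5.86 and 5.68 in wild-type replicates 14, 15, 16, 18 and 21 and 5.81, 5.80, 5.70, 5.79 and 5.76 in Nkx2.2-/- replicates 11, 12, 22, 29 and 43. Every Nkx2.2-/- value lay within the wild-type range, and the change was -0.04 with an interval of -0.16 to 0.07, and -0.06 on the 8 arrays of normal 5 prime Gapdh signal. Hes5 varied more. Its probe set 1456010_x_at read 7.09, 7.24, 7.28, 7.29 and 7.39 in wild type and 7.33, 7.24, 7.05, 6.96 and 6.77 in Nkx2.2-/- mice, in the same order. Nkx2.2-/- replicates 22, 29 and 43 lay below all wild-type mice, while replicates 11 and 12 lay among them. The wild-type mean was 7.26 ± 0.111 and the Nkx2.2-/- mean 7.07 ± 0.221 (SD, n = 5 each), which gives a change of -0.19 with an interval of -0.41 to 0.03 (limma unadjusted p = 0.0851, adjusted p = 0.9997).

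The second Hes5 probe set, 1423146_at, had a larger spread. It read 5.69, 6.20, 6.28, 6.24 and 6.41 in wild-type replicates 14, 15, 16, 18 and 21 and 6.26, 6.17, 6.01, 5.86 and 5.54 in Nkx2.2-/- replicates 11, 12, 22, 29 and 43. Here Nkx2.2-/- replicate 43 alone lay below all wild-type mice, while replicates 12, 22 and 29 lay above wild-type replicate 14 and below the other 4. The arrays of low 5 prime Gapdh signal were the lowest of their groups in both Hes5 probe sets. The change was -0.20 with an interval of -0.54 to 0.15, and without those arrays it was -0.21 with an interval of -0.40 to -0.01 (limma unadjusted p = 0.0379, adjusted p = 0.9998). For 1456010_x_at the change without them was -0.16, with an interval of -0.34 to 0.02. Leaving out Nkx2.2-/- replicate 11 or another single array moved the changes between -0.25 and -0.11 for 1456010_x_at and between -0.31 and -0.09 for 1423146_at.

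Markers of dividing cells and of radial glia, which are cells known to contain Hes5, were lower in sign beside it. This sign was not particular to those lists. It also held for all 9 cerebellar markers (median -0.18), all 6 meningeal and fibroblast markers (median -0.43) and all 6 mural cell markers (median -0.07). The largest such median was that of the 7 measured markers of myelinating oligodendrocytes, all negative (median -0.97), of which 6 were called lower. Signs were mixed in other lists, among them astrocyte markers (4 positive, 5 negative) and oligodendrocyte precursor markers (5 positive, 2 negative). All 9 measured markers of dividing cells had negative changes with a median of -0.48, 7 of them at an unadjusted limma p under 0.05 and 0 called. Their mean level ran from 5.70 to 6.39 in wild type and from 5.20 to 5.83 in Nkx2.2-/- mice, where replicate 11 was highest in this list as it was in Hes5. Nkx2.2-/- replicate 11 was also highest of its group for the cerebellar markers. In wild type the orders differed, with replicate 18 highest for the dividing cell and the cerebellar markers and replicate 21 for Hes5. All 7 radial glia markers had negative changes with a median of -0.11, 1 of them at an unadjusted limma p under 0.05 and 0 called. Their mean level ran from 8.76 to 8.98 in wild type and from 8.57 to 8.81 in Nkx2.2-/- mice, where replicate 29 was highest. Caudal Hox genes, which mark more posterior cord, were higher in sign, with positive changes in 8 of 8 measured genes, a median of 0.24, 2 at an unadjusted limma p under 0.05 and 0 called. Their mean level was 5.80, 5.80 and 5.45 in Nkx2.2-/- replicates 22, 29 and 43, the mice of low Hes5 1456010_x_at. It was 5.21 and 5.27 in replicates 11 and 12 and 5.10 to 5.28 in wild type. With the mean of the dividing cell markers as a covariate, the Hes5 changes were -0.05 and -0.02. That covariate itself moves with the genotype, and the part of these cell groups or of the level of dissection in the Hes5 values was not tested.

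Most Id probe sets varied widely between mice of 1 genotype. Of their 8 probe sets, 7 had negative changes and 1 a positive one, and 6 had a spread within groups (SD) above that of 95% of all probe sets. The others were Id3, with an SD of 0.168, and Id2 1453596_at, whose SD of 0.0538 was the smallest of the 18 members. Id1, a BMP-induced inhibitor also made by vessels, read 6.20, 7.20, 6.89, 7.22 and 7.53 in wild-type replicates 14, 15, 16, 18 and 21. It read 6.88, 7.02, 7.00, 7.04 and 5.93 in Nkx2.2-/- replicates 11, 12, 22, 29 and 43. The low values were those of the arrays of low 5 prime Gapdh signal, which deviated by -1.01 and -1.08 from the median of the other arrays of their groups. The change was -0.24 (SE 0.268, 95% interval -0.83 to 0.36, limma unadjusted p = 0.400). Without those arrays it was -0.23 with a smaller error (SE 0.111, interval -0.47 to 0.02, limma unadjusted p = 0.0701, adjusted p = 0.9998). Without wild-type replicate 14 alone the change was -0.44 and without Nkx2.2-/- replicate 43 alone it was -0.02, so the size of the Id1 value rests on which of the pair is kept. Endothelial markers, which could accompany Id1, had a median change of -0.03 in 8 measured genes, with mean levels of 5.90 to 6.19 in wild type and 5.91 to 6.06 in Nkx2.2-/- mice, and their part in the Id1 values was not tested.

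Id2, which together with Id4 is known to retain Olig factors in precursors, was read by 3 probe sets. Probe set 1435176_a_at read 8.56, 9.18, 8.91, 9.57 and 9.35 in wild-type replicates 14, 15, 16, 18 and 21 and 8.85, 9.12, 9.08, 9.20 and 8.88 in Nkx2.2-/- replicates 11, 12, 22, 29 and 43. The wild-type mice spanned the whole range, from replicate 14 to replicate 18, and enclosed all Nkx2.2-/- values. The change was -0.09 with an interval of -0.45 to 0.27, and on the 8 arrays of normal 5 prime Gapdh signal it was -0.19 with an interval of -0.48 to 0.09. Probe set 1422537_a_at had a change of -0.02 with an interval of -0.41 to 0.38, and of -0.10 without those arrays. The dim probe set 1453596_at had a change of -0.02 with and without them. Left out one at a time, single arrays turned the sign of all 3 (ranges of -0.23 to 0.02, -0.17 to 0.09 and -0.03 to 0.00080), so no direction is given for Id2.

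Id3, a close relative of Id1, read 7.16, 7.53, 7.28, 7.54 and 7.48 in wild-type replicates 14, 15, 16, 18 and 21 and 7.20, 7.39, 7.24, 7.46 and 7.03 in Nkx2.2-/- replicates 11, 12, 22, 29 and 43. The groups overlapped, and the arrays of low 5 prime Gapdh signal were again the lowest of each. The change was -0.14 with an interval of -0.35 to 0.07 (limma unadjusted p = 0.178), and it was -0.14 without those arrays as well.

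Id4 showed opposite array patterns in different probe sets of the same gene. Probe set 1450928_at read 9.47, 8.93, 9.26, 9.40 and 9.16 in wild-type replicates 14, 15, 16, 18 and 21 and 9.01, 9.12, 8.76, 9.57 and 9.60 in Nkx2.2-/- replicates 11, 12, 22, 29 and 43. Probe set 1423260_at read 5.96, 6.57, 6.58, 6.17 and 6.77 in wild type and 6.63, 6.25, 6.27, 6.21 and 5.57 in Nkx2.2-/- mice, in the same order. The arrays of low 5 prime Gapdh signal were the highest of their groups in the former and the lowest in the latter, and 1423259_at followed the former. The changes were -0.03 (interval -0.39 to 0.33) for 1450928_at, 0.03 (-0.38 to 0.43) for 1423259_at and -0.23 (-0.66 to 0.21) for 1423260_at. Without those arrays they were -0.07, 0.01 and -0.18. Leaving out Nkx2.2-/- replicate 43 alone took 1423260_at to -0.07, and leaving out wild-type replicate 14 alone took it to -0.34. The difference of 1423260_at minus 1450928_at ran from -3.51 to -2.36 in wild type and from -4.03 to -2.38 in Nkx2.2-/- mice, and its change of -0.20 with an interval of -0.90 to 0.51 did not pass (limma adjusted p = 0.9999).

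**Figure D3:**
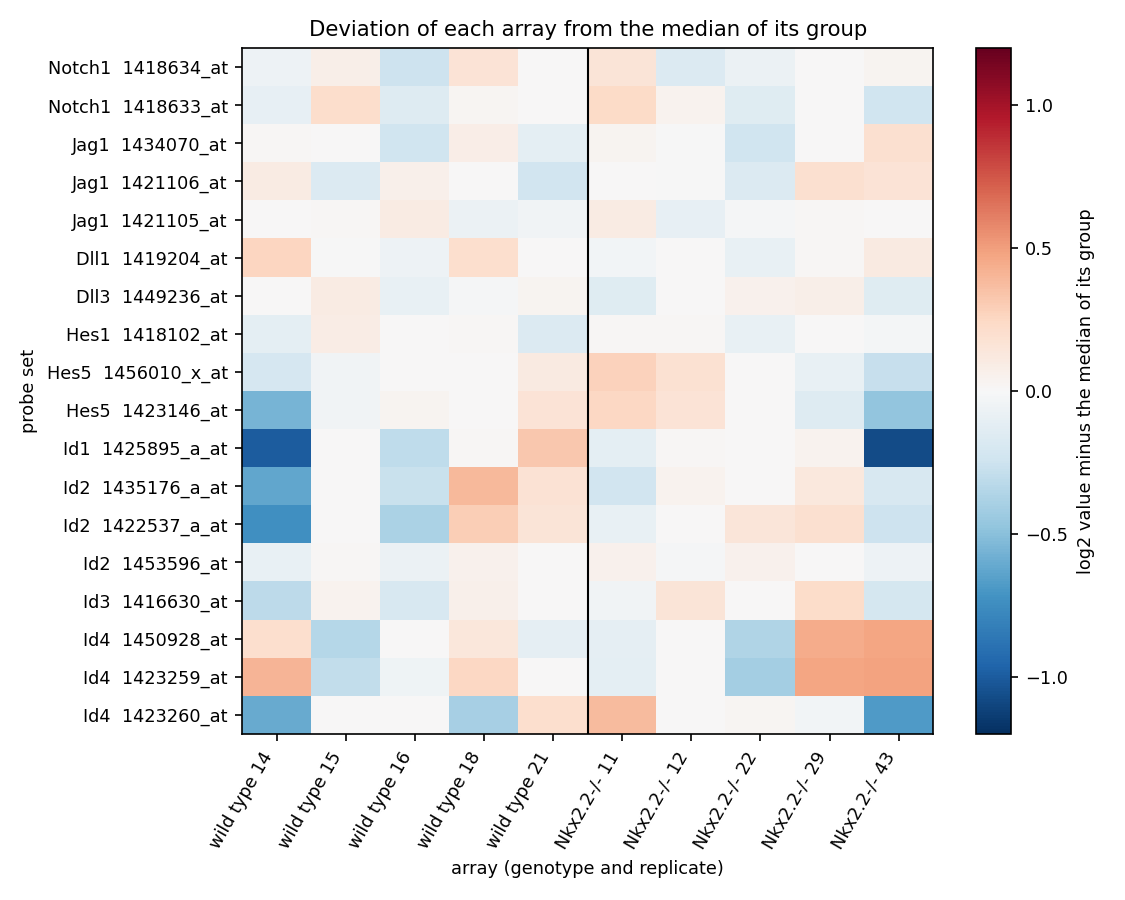
Log2 value of each Notch and Id probe set on each array minus the median of its genotype group (blue lower, red higher), with wild-type arrays left of the line and Nkx2.2-/- arrays right of it. Wild-type replicate 14 and Nkx2.2-/- replicate 43 were the lowest of their groups for Id1, Id3, Hes5 and Id4 1423260_at, and the highest, by small margins in Nkx2.2-/- replicate 43, for the other Id4 probe sets.

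The place of those arrays in their groups was counted over the members and over the whole table. Both were the lowest of their groups in 7 of the 18 probe sets, of Hes5, Id1, Id2, Id3 and Id4, against 11.5% of all probe sets. Both were the highest in 3, of Dll1 and Id4, against 13.1% of all. The remaining 8 probe sets, which include all those of Notch1, Jag1, Hes1 and Dll3, showed neither. As the pair holds 1 mouse of each genotype, leaving it out changed the error more than the direction: 10 of 18 intervals became narrower with 8 arrays, 0 probe sets were called, and 2 had an unadjusted limma p under 0.05, Jag1 1421106_at and Hes5 1423146_at. The part of RNA quality in these values was not tested.

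**Figure D4:**
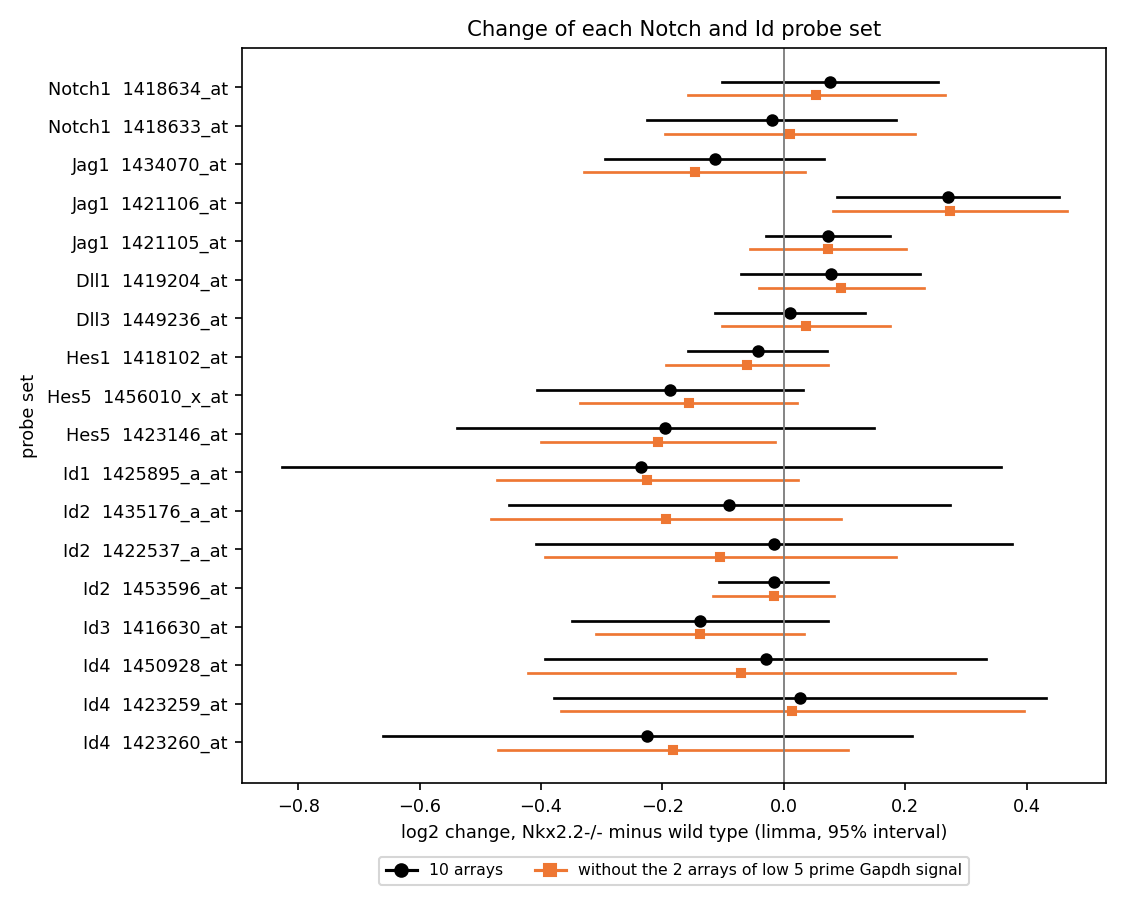
Log2 change of each probe set, Nkx2.2-/- minus wild type, with its 95% limma interval over 10 arrays (black circles) and over the 8 arrays of normal 5 prime Gapdh signal (orange squares). The intervals of 17 of 18 probe sets include 0 with 10 arrays, and that of Id1 narrows from -0.83 to 0.36 to -0.47 to 0.02 with 8.

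No other gene of the Notch pathway was called. Of 46 listed genes 43 were measured, and 0 passed in either direction (limma over all probe sets), while 2 had an unadjusted p under 0.05. Over all genes, each by its probe set of highest mean, 0.0605% passed and 3.69% had such a p. The list held 19 positive and 24 negative changes, with a median of -0.0044 beside -0.0042 over all 18193 genes. Dlk1, a ligand-like protein that does not activate Notch, had the largest change of the list, -0.47 (interval -0.91 to -0.04, limma unadjusted p = 0.0357), and wild-type replicate 15 was its highest array at 8.00. That mouse was also highest for meningeal and fibroblast markers, whose mean level was 7.79 there and 6.19 to 7.25 in the other wild-type mice, and their part in the Dlk1 value was not tested. Nrarp, a feedback inhibitor that Notch induces, read 7.31, 7.52, 7.47, 7.45 and 7.32 in wild-type replicates 14, 15, 16, 18 and 21 and 7.39, 7.34, 7.33, 7.18 and 7.11 in Nkx2.2-/- replicates 11, 12, 22, 29 and 43. Its groups overlapped, and its change was -0.14 with an interval of -0.29 to -0.0013 (limma unadjusted p = 0.0482). On the positive side, Dll4, a ligand of vessels, was at 0.10 (interval -0.01 to 0.20) and Fbxw7, which marks the cleaved receptor for destruction, at 0.18 (interval -0.13 to 0.48).

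BMP signalling genes, upstream of the Id genes, were likewise without a call, with 19 of 20 measured, 0 passing and 2 at an unadjusted p under 0.05 (limma). Their median change was -0.01. Bmp4, a ligand that induces Id genes, was at -0.24 (interval -0.44 to -0.04, limma unadjusted p = 0.0255) and was highest at 5.98 in wild-type replicate 15, the mouse of highest meningeal markers. Nog, the secreted BMP antagonist noggin, was at 0.10 (interval 0.0029 to 0.20, limma unadjusted p = 0.0445), from means of 4.51 and 4.61 near background. Smad7, an inhibitory Smad, was at -0.11 and the receptor gene Bmpr1b at 0.06, both with intervals that include 0.

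The listed partners of Id and Hes proteins were basic helix-loop-helix factors and the corepressors Tle1, Tle2, Tle3 and Tle4. Of these genes 15 of 16 were measured, and 0 passed or reached an unadjusted limma p under 0.05. Their median change was 0.01. Olig2 and Olig1, the lineage factors that Id2 and Id4 bind, were at 0.13 (interval -0.01 to 0.28) and 0.13 (interval -0.01 to 0.27). The lowest p among negative changes belonged to Neurod4, at -0.05, and Neurod1, at -0.64 with an interval of -1.79 to 0.50, both proneural factors. Neurod1 ran from 6.68 to 8.85 in wild type and from 6.02 to 8.67 in Nkx2.2-/- mice, and its highest mouse in each genotype, wild-type replicate 18 and Nkx2.2-/- replicate 11, was also highest for the cerebellar markers, a list that includes Neurod1. Those means were 7.56 and 7.38, against 6.21 to 7.08 in the other mice.

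The gene whose values over the 10 arrays were most alike to each member was found among 18192 other genes by Pearson's r, as a description. Each gene, member or other, was read by its probe set of highest mean. Other probe sets of a member, such as those of Jag1 and Id4, can have other array patterns. It was Zkscan17 for Notch1 (r = 0.885), Epha3 for Jag1 (r = 0.941), Shh for Dll1 (r = 0.956) and Fgf9 for Dll3 (r = 0.963). It was Gpc3 for Hes1 (r = 0.881) and Erf for Hes5 (r = 0.925). Among the Id genes it was Psma7 for Id1 (r = 0.989), Polr2d for Id2 (r = 0.939), Ssr2 for Id3 (r = 0.964) and Cept1 for Id4 (r = 0.975). No member was the most alike gene of another member. These values share array quality and dissection as well as expression, and each is the highest of 18192 over only 10 arrays.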

How the data were processed

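Per the submitters' processing notes, the authors used RMA, and the table they deposited holds log2 values for each probe set. The RMA version is not stated in those notes. RMA gives all arrays nearly 1 distribution and compresses differences of dim probe sets. Sample titles gave the groups. Litter and batch were not known here. The p-values weigh the genotype difference against the spread between arrays of 1 genotype. In that spread mouse, litter, batch, dissection and RNA quality cannot be told apart, and the number of arrays limits the precision. From 45101 probe sets 64 controls were removed. The platform annotation named 34945 with 1 symbol and 932 with several, and left 9160 unnamed; RefSeq carried the same symbol for all 10 members.

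limma 3.58.1 (lmFit, eBayes; R 4.3.3) was fitted to all 45037 remaining probe sets with genotype as the only term and no filter, two-sided, and Benjamini-Hochberg adjusted p-values were read at 0.05. List genes are read by their probe set of highest mean among those with 1 symbol. Named are all members, Nkx2-2, per pathway list the 2 genes of lowest p each way, and per member the most alike gene. Members, lists, tests and alternatives were chosen with earlier results of these data known, and the fit on pairs of probe sets after seeing Jag1. The alternatives were 1 probe set per gene, a filter on level, median centring, array weights, eBayes with trend or robust, Gapdh or dividing cells as a covariate, and leaving out arrays. On 10 simulated sets of this comparison over 45037 probe sets, with 200 changed by 1 log2 unit, 96.6% were recovered and 5.03% of calls were false; simulated probe sets were independent, so recovery in the real comparison can be lower. Figures were drawn with matplotlib 3.10.9 (Python 3.11.15, pandas 2.3.3).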

Additional observations from a re-analysis of the deposited data

Results flagged for a closer look

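A single array stood far from the others of its group in 2 of 36 group-wise checks of the members, where chance alone gives about 1 in 20. In Id1, Nkx2.2-/- replicate 43 was lowest at 5.93, and its gap of 0.955 to the next mouse was 0.858 of the range of the group. In Hes5 1423146_at, wild-type replicate 14 was lowest at 5.69, with a gap of 0.514 that was 0.714 of the range. The limit for 5 samples is 0.71. These are the arrays of low 5 prime Gapdh signal, and the cause of the low values was not tested.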

How the results depend on the processing

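0 member probe sets and 0 pathway genes passed in any of the 9 alternative fits or without any single array (limma). The lowest adjusted p of a member was 0.577, for Jag1 1421106_at with array weights. Over all probe sets 23 were called, against 11 with 1 probe set per gene, which tests fewer rows, and 15 with the dividing cell markers as a covariate, for which the cause was not tested. With eBayes trend and with the Gapdh covariate 31 were called each, and the other alternatives gave 20 to 25. Without single arrays those calls ran from 18 to 23 and the Nkx2-2 change from -2.10 to -1.97. Small changes turned sign in 12 cases, and the cause was not tested. With array weights Notch1 1418634_at was at -0.013 and Id4 1423259_at at -0.020. On the 8 arrays of normal 5 prime Gapdh signal Notch1 1418633_at was at 0.010. With the Gapdh difference as a covariate Notch1 1418633_at was at 0.0059, Id2 1422537_a_at at 0.040 and Id4 1423259_at at -0.034. With the dividing cell covariate Notch1 1418633_at was at 0.107, Dll3 at -0.052, Hes1 at 0.0015, and Id2 1435176_a_at, 1422537_a_at and 1453596_at at 0.056, 0.142 and 0.035. Left out one at a time, arrays moved Notch1 1418633_at between -0.083 and 0.035, Dll3 between -0.017 and 0.038, Id2 1435176_a_at between -0.229 and 0.024, Id2 1422537_a_at between -0.167 and 0.090, Id2 1453596_at between -0.034 and 0.00080, Id4 1450928_at between -0.127 and 0.083 and Id4 1423259_at between -0.072 and 0.149. The other 9 probe sets kept their sign in every fit that included them. Jag1 1421106_at and 1421105_at were in neither the fit on 1 probe set per gene nor the fit filtered on level. Hes5 1423146_at and Id4 1423260_at were not in the former. Dim probe sets and arrays of low 5 prime Gapdh signal limit what these values can show. No paired analysis was made, because the litter of each mouse was not known here.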
